A study of Mus musculus with 5 samples.

Results

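The genes described here are 10 members of the Bcl2 family, whose proteins decide at the mitochondrion whether a cell lives or dies. They were chosen by name and are 10 of the 28692 genes in the deposited count matrices. The members are Bcl2, Mcl1, Bcl2l1, Bcl2a1a, Bcl2a1b, Bcl2a1d, Bax, Bcl2l11, Bbc3 and Pmaip1, and each had counts in all 5 libraries. As background, the pro-survival proteins (BCL2, MCL1, BCL-XL from Bcl2l1 and A1 from the Bcl2a1 genes) hold back effectors such as BAX, which opens pores in the outer mitochondrial membrane. The BH3-only proteins BIM (from Bcl2l11), PUMA (Bbc3) and NOXA (Pmaip1) answer stress and growth factor loss and bind the pro-survival proteins. In marrow, early B-lineage cells are known to need BCL-XL and MCL1, mature lymphocytes to rely on BCL2, and short-lived neutrophils to rely on MCL1 and A1.

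The libraries follow the marrow of C57BL/6J mice, 8 weeks old, in which a leukemia grew from injected cells. Each of the 5 mice was given 1000 pre-B acute lymphoblastic leukemia cells driven by the BCR-ABL1 fusion kinase into the tail vein, the day 0 mouse included, which was killed right after the injection. Flushed marrow of femurs and tibias was pooled with cells freed by collagenase and DNase from the crushed bones. Red cells were lysed and the cells frozen before 10x Genomics 3′ sequencing, with 1 mouse and 1 library for each of days 0, 3, 6, 9 and 12. No marker used here tells leukemia cells from host cells, and the number of leukemia cells in each class was not determined.

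Counts are unique molecular identifiers (UMIs), 1 for each captured RNA molecule. Wherever 5 values follow each other, they stand for days 0, 3, 6, 9 and 12 in that order. The libraries held 35329966, 38827241, 40601920, 43554233 and 33425695 UMIs over all barcodes. Barcodes with at least 500 UMIs were used, and these numbered 6680, 5474, 6506, 7604 and 5871, with a median of 2874, 3786, 3382, 3254 and 3408 UMIs. Pairs of libraries shared 44 to 73 of these barcodes, against 43.6 to 68.9 if barcodes were drawn independently. The pair furthest above this was days 3 and 6, with 68 against 48.3. A level is the summed UMIs of a gene per 10000 UMIs of a cell class in 1 library, given where the class has at least 20 barcodes there. Intervals are exact 95% Poisson intervals for levels and Clopper-Pearson intervals for shares, which take in counting error only and say nothing of how mice differ. Where a class had 0 UMIs of a gene, the level allowed is that of 3 UMIs, not the upper end of such an interval. With 1 mouse per day there is no replicate check of a day, so no test between days was made, while classes were compared within the 5 libraries.

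Clusters of all 32135 barcodes were named from marker genes, and each name ends in "-like". The members and all listed genes described below took no part in the clustering. B-like cells numbered 838, 255, 692, 590 and 110. Pro/pre-B-like cells, the stage the leukemia resembles, numbered 285, 190, 385, 384 and 54. A further B-lineage cluster marked by Cdkn2a and Tmem119 held 133 barcodes, all from day 3, with a median of 19668 UMIs, and was kept apart. T-like cells numbered 2005 in all, NK-like 513, plasmacytoid dendritic-like 897, immature neutrophil-like 8359, late neutrophil-like 8843, monocyte-like 4051, granulocyte-monocyte progenitor (GMP)-like 621, and stem and lymphoid progenitor (ST-HSC & MLP)-like 393. Macrophage-like cells gave levels in 3 libraries, and erythroid-like and stromal or endothelial-like cells at day 9 only. Plasma-like cells (35 barcodes) never reached 20 in a library, and 2233 barcodes stayed without a name.

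Bcl2, the founding pro-survival gene, was highest by median library in T-like and then NK-like cells. T-like cells held 3.70, 3.84, 3.05, 2.66 and 3.61 UMIs per 10000. The level in NK-like cells was 2.78, 2.36, 2.52, 2.09 and 1.62. B-like cells stood at 0.807, 0.901, 0.967, 0.708 and 0.624. All 5 libraries placed T-like above NK-like cells and NK-like above B-like cells, with the range of T-like and NK-like cells touching across days. Pro/pre-B-like cells held 0.0691, 0.0385, 0.0749, 0.133 and 0.180, from 8, 4, 13, 23 and 6 UMIs, so every library of this class lay below every B-like library. Ordered by their median library, the classes ran T, NK, ST-HSC & MLP, B, plasmacytoid dendritic, GMP, macrophage, Cdkn2a-Tmem119, monocyte, pro/pre-B, immature neutrophil and late neutrophil. Neighbours in that order overlapped except at 3 steps, from ST-HSC & MLP to B, from plasmacytoid dendritic to GMP and from the Cdkn2a-Tmem119 group to monocyte-like cells. ST-HSC & MLP-like cells held 1.06 to 1.69 and GMP-like cells 0.179 to 0.386. The neutrophil-like classes were lowest of those with 5 libraries, at 0.0262 to 0.0456 for immature and 0.0273 to 0.0341 for late cells.

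The shares of barcodes with a Bcl2 UMI had the same shape. In T-like cells they were 45.7%, 51.9%, 49.7%, 44.3% and 48.6%, at a median depth of 1957 to 2876.5 UMIs. Late neutrophil-like cells, which served as the class with least Bcl2, gave 0.693% to 0.885% at a median of 2000.5 to 2553.5 UMIs. With every barcode thinned to 1000 UMIs, the shares were 22.7% to 31.1% in T-like and 0.128% to 0.559% in late neutrophil-like cells. B-like cells came to 10.0% to 18.8%, or 6.38% to 8.98% after thinning. In pro/pre-B-like cells the shares were 2.46%, 2.11%, 2.86%, 4.95% and 11.1%, the last from 54 barcodes, and 0.379% to 1.51% after thinning at the first 4 days.

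Mcl1, which makes a short-lived pro-survival protein that marrow cells need at many stages, had UMIs in every class with levels. Free RNA adds to these UMIs, as described below for T-like, NK-like, B-like and pro/pre-B-like cells. Late neutrophil-like cells held 5.32, 4.44, 5.20, 4.98 and 6.78 UMIs per 10000. Monocyte-like cells held 3.71, 2.77, 2.98, 3.23 and 3.31. The range of late neutrophil-like cells lay above that of every other class, while each class below it overlapped its neighbour in the order except the Cdkn2a-Tmem119 group, which was last at 0.638. B-like cells stood at 2.45, 2.86, 2.73, 3.32 and 3.5. Immature neutrophil-like cells stood at 1.41, 1.21, 1.52, 1.5 and 2.23, and pro/pre-B-like cells at 1.52, 1.01, 1.43, 1.38 and 1.5. By these measured levels B-like libraries all lay above the immature neutrophil-like and the pro/pre-B-like ones. With free RNA taken off, as described below, B-like cells stood at 1.23 to 2.67 and reached into the immature neutrophil-like range. No free share was estimated for neutrophil-like cells, so the order of these 2 classes is not settled. T-like cells held 1.54 to 1.93, NK-like 1.20 to 1.92, plasmacytoid dendritic-like 1.39 to 2.56, ST-HSC & MLP-like 0.925 to 1.63 and GMP-like 0.987 to 1.21.

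Bcl2l1, whose main product BCL-XL keeps pre-B cells and red cell precursors alive, was sparse, with 1423 UMIs over all barcodes. Pro/pre-B-like cells held 0.328, 0.433, 0.582, 0.329 and 0.329 per 10000. B-like cells held 0.0572, 0.0933, 0.0905, 0.123 and 0.0480. The 2 ranges did not overlap, and no other class with 5 libraries reached the pro/pre-B-like range. NK-like cells came nearest at 0.0780 to 0.300, then T-like at 0.101 to 0.204. The single erythroid-like value, 0.897 at day 9, was highest of all and rests on 8 UMIs in 46 barcodes. Plasmacytoid dendritic-like cells were at 0 to 0.0528, with 0 UMIs at days 0 and 12, which allows levels of up to 0.0525 and 0.160.

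The Bcl2a1 genes encode A1, a pro-survival protein made in activated lymphocytes and myeloid cells, and mice carry them as neighbouring copies on chromosome 9. Their transcripts were 98.2% to 99.1% identical, and the last 300 bases, where 3′ reads fall, were 98.7% to 99.3% identical. Reads shared by copies are lost when they cannot be placed, so the sum of the copies is given as well, and levels of different copies are not to be compared. The promoters are shown because Bcl2a1b and Bcl2a1d went together over classes, with r = 0.90 over 56 sums of class and library, which share libraries and depth. Each sequence holds 250 bases before and 50 bases after the transcript start, credited to RefSeq, build GRCm38.p6, on the strand of the gene. Capitals mark the bases that differ from the aligned base of Bcl2a1b, 2 in Bcl2a1a and 3 in Bcl2a1d. Of 300 bases, 256 of Bcl2a1a and 250 of Bcl2a1d were aligned to Bcl2a1b. Gaps and bases without a partner are not marked, so the capitals are not the whole difference. The sequences lie at chr9:89199023-89199322 on the plus strand for Bcl2a1b, chr9:88956670-88956969 on the plus strand for Bcl2a1a and chr9:88731801-88732100 on the minus strand for Bcl2a1d.
Bcl2a1b: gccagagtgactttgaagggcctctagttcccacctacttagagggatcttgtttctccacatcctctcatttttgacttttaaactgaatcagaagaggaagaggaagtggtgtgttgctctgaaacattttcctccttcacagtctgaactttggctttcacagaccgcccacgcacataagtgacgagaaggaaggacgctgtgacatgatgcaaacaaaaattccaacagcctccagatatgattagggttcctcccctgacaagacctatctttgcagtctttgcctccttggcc
Bcl2a1a: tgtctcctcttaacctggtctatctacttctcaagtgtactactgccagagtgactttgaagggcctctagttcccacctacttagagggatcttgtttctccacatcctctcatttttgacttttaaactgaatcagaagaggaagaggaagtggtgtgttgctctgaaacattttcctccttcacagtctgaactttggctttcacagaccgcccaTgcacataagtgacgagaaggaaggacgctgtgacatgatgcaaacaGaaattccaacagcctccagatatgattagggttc
Bcl2a1d: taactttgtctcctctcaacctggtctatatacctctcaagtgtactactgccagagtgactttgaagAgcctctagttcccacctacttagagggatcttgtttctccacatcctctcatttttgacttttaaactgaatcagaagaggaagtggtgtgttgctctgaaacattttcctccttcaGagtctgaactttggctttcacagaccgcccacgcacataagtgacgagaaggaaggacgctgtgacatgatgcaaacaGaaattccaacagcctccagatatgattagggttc
Over the aligned bases the promoters were 98.0% to 99.2% identical. The letters GAGGAAGT, a core that ETS factors such as PU.1 can bind, were in all 3 on either strand and in 3.20% of 32851 promoters of this length. The letters TGACTCA (5.20% of promoters) and TGACGTCA (1.79%) were in none of the 3, and neither was the NF-kB consensus (9.12%), which was in 1 of 3 promoters of Bcl2l1, 2 of 2 of Bcl2l11 and 1 of 3 of Bbc3.

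Bcl2a1b had 2740 UMIs placed on it. In B-like cells it stood at 0.515, 0.964, 0.690, 0.300 and 0.240 UMIs per 10000. In T-like cells it stood at 0.498, 0.542, 0.589, 0.555 and 0.492. Pro/pre-B-like cells had 3, 1, 5, 2 and 1 UMIs, or 0.0259, 0.00963, 0.0288, 0.0115 and 0.0299. B-like values spread over a wide range with day 3 highest, T-like values lay close together, and both classes lay above all pro/pre-B-like libraries. Late neutrophil-like cells held 0.300, 0.276, 0.20, 0.220 and 0.150, against 0.0412 to 0.0541 in immature neutrophil-like cells, again with no overlap. Among named classes macrophage-like cells were highest by median, at 1.24, 0.688 and 0.696 (days 3, 6 and 9), though B-like cells matched them at day 6 (0.690). That class is uncertain, since 37 of its 123 barcodes kept the name at another clustering resolution and 33.3%, 24.4% and 13.5% were likely doublets on those days, by the highest Scrublet scores. T-like, B-like and NK-like cells followed with overlapping ranges. An unnamed cluster of 119 barcodes had Bcl2a1d and Bcl2a1b among its 10 leading genes, and no level is given for it.

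Bcl2a1d, with 1577 UMIs, was ordered much like that. B-like cells held 0.254, 0.295, 0.385, 0.131 and 0.0960 per 10000, and pro/pre-B-like cells had 0, 1, 2, 0 and 0 UMIs, the zeros allowing levels of up to 0.0259, 0.0173 and 0.0898. T-like cells held 0.179 to 0.377, and monocyte-like cells 0.121 to 0.282. Bcl2a1a had only 621 UMIs, and its levels were 0.0580 to 0.0999 in late neutrophil-like, 0.0341 to 0.0988 in monocyte-like and 0.00635 to 0.0385 in B-like cells at the first 4 days, with 0 UMIs (up to 0.144) at day 12. The sum of the copies was 0.775, 1.29, 1.10, 0.469 and 0.336 in B-like cells. In T-like cells the sum was 0.688, 0.834, 0.974, 0.808 and 0.729. It was 0.458, 0.393, 0.318, 0.362 and 0.251 in late neutrophil-like, 1.26 to 2.90 in macrophage-like and 0.0115 to 0.0403 in pro/pre-B-like cells, the lowest of the classes with 5 libraries by median.

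**Figure D1:**
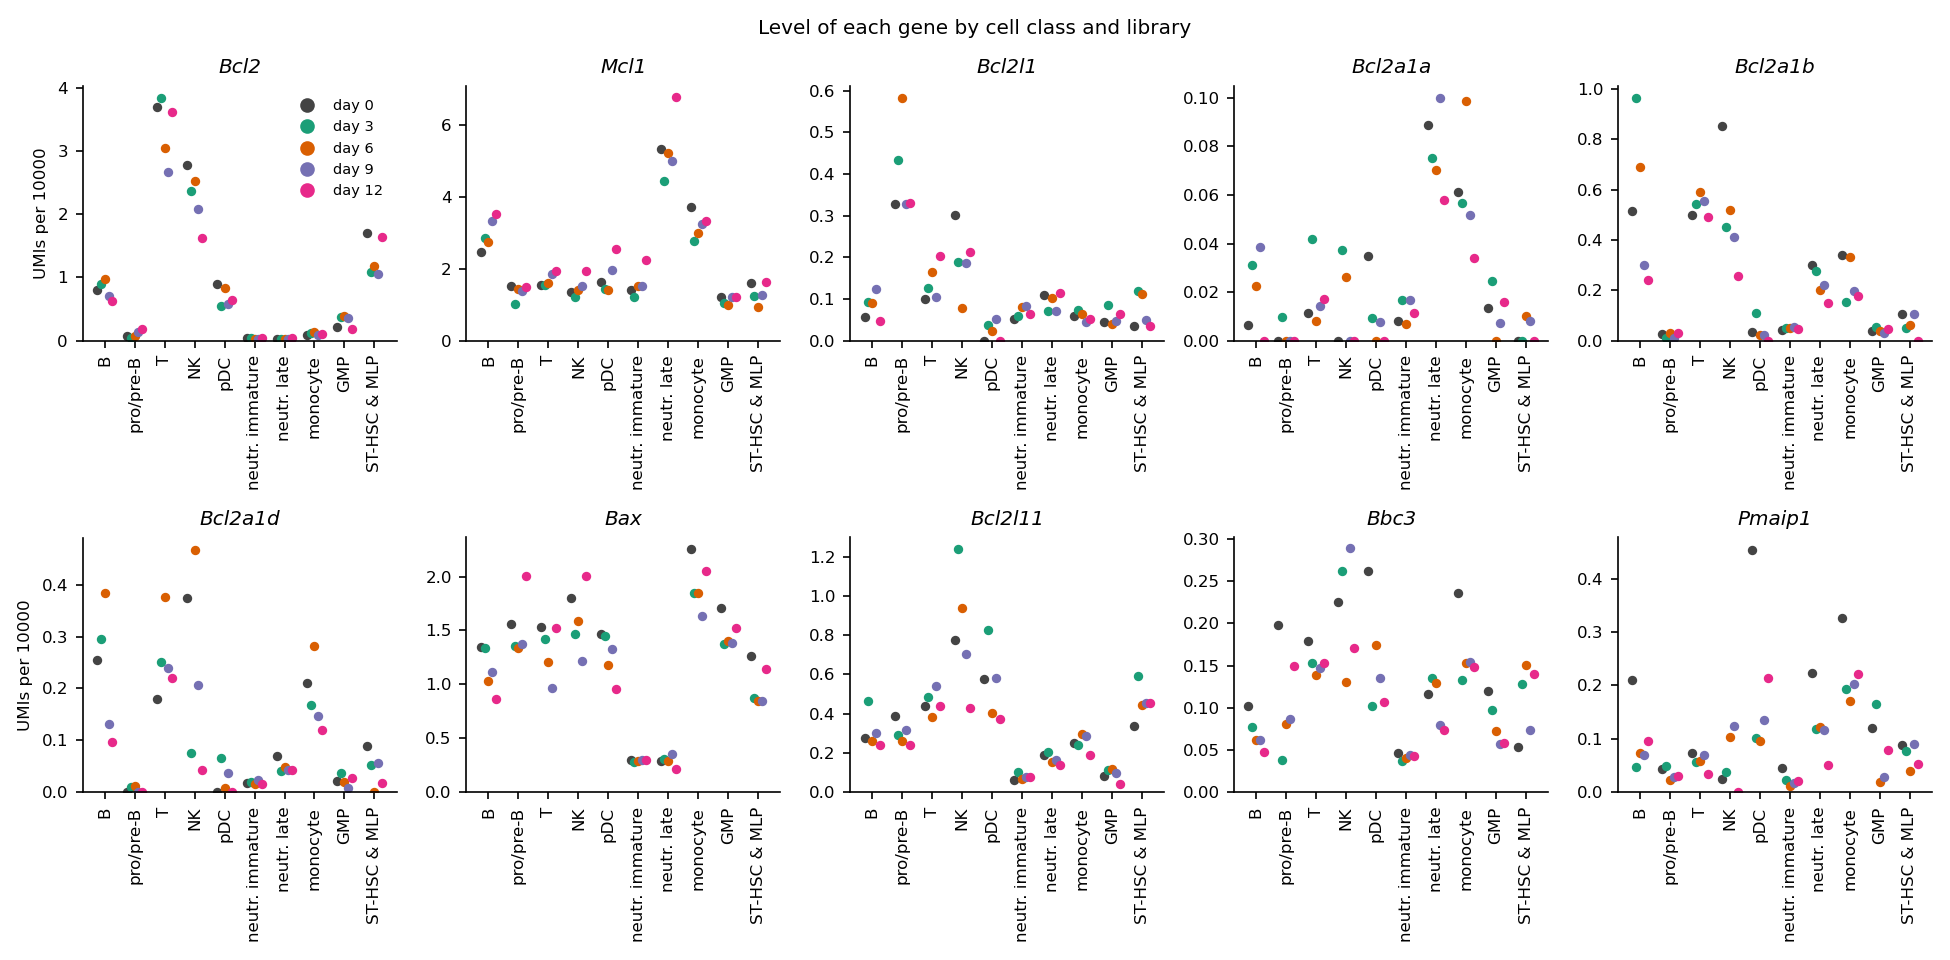
Levels of the 10 genes (UMIs per 10000 UMIs of the class, vertical axes) in 10 classes (horizontal axes), with 1 point for each library, colored by day. Bcl2 is highest in T-like cells (2.66 to 3.84), Mcl1 in late neutrophil-like cells (4.44 to 6.78) and Bcl2l1 in pro/pre-B-like cells (0.328 to 0.582).

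Bax, the effector, was lower in the neutrophil-like classes than in the other classes with 5 libraries. Monocyte-like cells held 2.26, 1.84, 1.85, 1.64 and 2.05 UMIs per 10000. Immature neutrophil-like cells held 0.302, 0.277, 0.285, 0.297 and 0.302, and late neutrophil-like cells 0.287, 0.308, 0.286, 0.354 and 0.217. No library of either neutrophil-like class reached any library of the other classes with 5 values. Those others overlapped along the order, with NK-like cells at 1.22 to 2.01, T-like 0.969 to 1.53, GMP-like 1.38 to 1.71, pro/pre-B-like 1.34 to 2.01, plasmacytoid dendritic-like 0.958 to 1.47, B-like 0.864 to 1.35 and ST-HSC & MLP-like 0.844 to 1.27. Macrophage-like cells ranged from 0.249, on 3 UMIs, to 1.83 and so reached into the neutrophil-like range. Erythroid-like cells at day 9 had 0 Bax UMIs, which allows a level of up to 0.336.

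Bcl2l11 encodes BIM, the BH3-only protein that removes lymphocytes when survival signals are lost. NK-like cells held 0.776, 1.24, 0.936, 0.702 and 0.427 UMIs per 10000. Plasmacytoid dendritic-like cells held 0.577, 0.825, 0.403, 0.581 and 0.373. These were the highest 2 classes, they overlapped, and both were lowest at day 12. ST-HSC & MLP-like (0.339 to 0.591), T-like (0.385 to 0.541), pro/pre-B-like (0.240 to 0.389), B-like (0.240 to 0.466) and monocyte-like cells (0.191 to 0.296) followed in a chain of overlaps. Late neutrophil-like cells held 0.186, 0.203, 0.154, 0.162 and 0.137, above the 0.0622 to 0.102 of immature neutrophil-like cells in every library.

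Bbc3 encodes PUMA, a target of p53, and was sparse in every class, with 1473 UMIs in all. NK-like cells ranged from 0.130 to 0.289 per 10000, monocyte-like from 0.133 to 0.235 and T-like from 0.139 to 0.179. In pro/pre-B-like cells it stood at 0.199, 0.0385, 0.0806, 0.0865 and 0.150, from 23, 4, 14, 15 and 5 UMIs. Day 0 was thus the highest library of that class. Late neutrophil-like cells held 0.0734 to 0.135 and immature neutrophil-like cells 0.0363 to 0.0465, with no overlap.

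Pmaip1 encodes NOXA, the BH3-only protein that binds MCL1 and A1. Its level was 0.327, 0.193, 0.170, 0.203 and 0.221 in monocyte-like cells. Late neutrophil-like cells held 0.223, 0.119, 0.123, 0.116 and 0.0512, and plasmacytoid dendritic-like cells 0.455, 0.102, 0.0949, 0.136 and 0.213. Day 0 was the highest library in each of these classes. B-like cells held 0.210 at day 0 and 0.0466 to 0.0960 later, and immature neutrophil-like cells 0.0447 at day 0 and 0.0120 to 0.0233 later. T-like cells held 0.0339 to 0.0728, and RNA free in the suspension, estimated below, would give 74.4% to 87.7% of that. Neighbours overlapped along the whole order of classes with 5 libraries.

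Comparing classes within libraries asks how the family differs along B-cell maturation, neutrophil maturation and the choice of a lineage. Each contrast is edgeR's quasi-likelihood test on the summed counts of both classes in the 5 libraries, with the library as a block. A gene is called at a Benjamini-Hochberg adjusted p under 0.05, over all genes tested, and an absolute log2 fold change of at least 1. Errors are standard errors from the fold change and its F statistic. Library sizes were scaled by TMM, which centers the bulk of genes. The same test on plain library totals moved the median log2 fold change by −0.24 for B-like, −0.14 for late neutrophil-like, 1.13 for monocyte-like, 0.25 for NK-like and 1.11 for GMP-like cells, so fold changes below are relative to the bulk of genes.

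B-like cells carried the Bcl2 and A1 side of the family and pro/pre-B-like cells Bcl2l1. Of 9 members tested, 5 were called higher in B-like cells (13.7% of 8810 genes) and 1 lower (11.8%), so 6 of 9 were called against 25.5% of all genes. Bcl2 was higher by 3.43 ± 0.20 on the log2 scale (edgeR adjusted p = 1.1e-22), in 5 of 5 libraries. Mcl1 was higher by 1.32 ± 0.11 (edgeR adjusted p = 6.64e-17), in 5 of 5 libraries. Bcl2l1 had a log2 fold change of −1.98 ± 0.22 (edgeR adjusted p = 1.82e-11) and was higher in B-like cells in 0 of 5. RNA free in the suspension, estimated below, would give 67.5%, 44.8%, 85.3%, 42.4% and 137% of the Bcl2l1 measured in B-like cells. By this upper estimate the B-like counts of this gene were near or at background at days 6 and 12, and its fold is not exact. Bcl2a1b and Bcl2a1d were called as well and higher in 5 of 5. Their pro/pre-B-like counts were few and mostly not told from background, so no fitted fold is given. The pooled counts were 309 against 12 UMIs for Bcl2a1b, a ratio of 28.1 (15.9 to 55.0 by counting error). For Bcl2a1d they were 146 against 3, a ratio of 53.2 (17.8 to 261 by counting error). These intervals treat UMIs pooled over 5 mice as independent and leave out how the mice differ. By library, Bcl2a1b stood at 0.964 against 0.00963 at day 3 and at 0.240 against 0.0299 at day 12. The ratios rest on the same few pro/pre-B-like counts and are not exact either.

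Pmaip1 was also called, at 1.76 ± 0.40 (edgeR adjusted p = 0.000143) and higher in 4 of 5 libraries, from 60 pooled B-like and 20 pro/pre-B-like UMIs. Of the B-like UMIs, 33 came from day 0, and without day 0 the gene had too few counts to be tested. Bax (−0.08), Bcl2l11 (0.22) and Bbc3 (−0.29) were not called, and on library totals Bcl2l11 turned to −0.02. Bcl2a1a had too few counts to be tested, with 12 pooled UMIs against 1. On library totals the genes called split into 887 higher and 1493 lower, in place of 1208 and 1040, and the members again into 5 and 1. The Cdkn2a-Tmem119 group of day 3 was not tested. Beside the day 3 pro/pre-B-like level of each gene, it held 0.214 against 0.0385 of Bcl2, 0.638 against 1.01 of Mcl1, 0.266 against 0.433 of Bcl2l1 and 1.81 against 1.36 of Bax, at a far greater depth.

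Late neutrophil-like cells held more of most members than immature ones. Of 10 members tested, 7 were called higher (14.4% of 9876 genes) and 0 lower (16.6%), so 7 of 10 were called against 31.0% of all genes. By edgeR and by DESeq2 none was called lower, and by either tool 8 of 10 had an unadjusted p under 0.05, all in the direction of late cells. Mcl1 was higher by 1.92 ± 0.06 (edgeR adjusted p = 4.14e-19), in 5 of 5 libraries. Bcl2a1a (2.83 ± 0.21), Bcl2a1b (2.36 ± 0.13) and Bcl2a1d (1.54 ± 0.21) were higher in 5 of 5, with edgeR adjusted p of 4.27e-12, 1.91e-14 and 4.72e-07. All 3 BH3-only members were higher too, in 5 of 5 libraries: Bcl2l11 by 1.27 ± 0.12, Bbc3 by 1.46 ± 0.16 and Pmaip1 by 2.53 ± 0.19. Their edgeR adjusted p were 4.33e-10, 1.1e-08 and 4.75e-12. Bcl2l1 (0.61 ± 0.15) was short of the fold limit. Bax (0.12) and Bcl2 (−0.07) were not called, with Bax at −0.02 on library totals and Bcl2 at 0.03 without day 0. On library totals the genes called split into 1176 higher and 2025 lower, in place of 1426 and 1638, with the members at 7 and 0.

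GMP-like cells, the progenitors of neutrophils and monocytes, had less Mcl1 and more Bcl2 and Bax than neutrophil-like cells. The comparison class is all neutrophil-like cells, in which Mcl1 stood at 2.28, 2.15, 2.65, 2.56 and 3.76 against 1.21, 1.05, 0.987, 1.21 and 1.21 in GMP-like cells. Bcl2 stood at 0.0267 to 0.0422 in neutrophil-like and 0.179 to 0.386 in GMP-like cells, and Bax at 0.273 to 0.315 and 1.38 to 1.71. None of these ranges overlapped. Immature neutrophil-like cells alone held 1.21 to 2.23 of Mcl1 and late ones 4.44 to 6.78. The GMP-like range thus nearly touched that of immature cells, and this pair was not tested. Of 10 members, 2 were called higher (24.6% of 11251 genes) and 6 lower (25.1%), so 8 of 10 were called against 49.7% of all genes. Bcl2 was higher by 2.02 ± 0.17 (edgeR adjusted p = 3.96e-15) and Bax by 1.23 ± 0.08 (edgeR adjusted p = 1.44e-18), each in 5 of 5 libraries. Mcl1 had a log2 fold change of −2.33 ± 0.09 (edgeR adjusted p = 2.19e-27), higher in 0 of 5. Bcl2a1a was at −2.49 and Bcl2a1b at −2.38, each higher in 0 of 5 libraries, and Bcl2l1 (−1.56), Bcl2l11 (−1.32) and Bcl2a1d (−1.46) were called lower with TMM and by DESeq2 but not on library totals. By levels these were higher in GMP-like cells in 1, 1 and 2 of 5 libraries. The sum of the Bcl2a1 copies, 0.0430 to 0.116 in GMP-like cells, overlapped the 0.0666 to 0.0933 of immature neutrophil-like cells.

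That contrast moved with the scaling, and GMP-like cells were the deepest class with 5 libraries, at a median of 15022 to 18239 UMIs. On library totals, 5842 genes were higher and 1072 lower, in place of 2768 and 2827, and members split into 2 and 3. Bcl2l1 was then at −0.45, Bcl2l11 at −0.21 and Bcl2a1d at −0.35, while Bbc3 turned from −0.69 to 0.42 and Pmaip1 from −0.51 to 0.60. Mcl1 (−1.21), Bcl2a1a (−1.40) and Bcl2a1b (−1.28) were called lower on both scales.

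Monocyte-like cells held more Bax and Bcl2a1d than neutrophil-like cells. Bcl2a1d stood at 0.210, 0.168, 0.282, 0.146 and 0.121 UMIs per 10000 in monocyte-like and at 0.0293, 0.0258, 0.0250, 0.0285 and 0.0247 in neutrophil-like cells. Neither gene overlapped between the classes. Of 10 members, 2 were called higher (19.1% of 11273 genes) and 1 lower (17.8%), so 3 of 10 were called against 36.9% of all genes. Bax was higher by 1.58 ± 0.07 (edgeR adjusted p = 4.44e-12) and Bcl2a1d by 1.64 ± 0.16 (edgeR adjusted p = 1.46e-07), each in 5 of 5 libraries. Bcl2l1 was called lower at −1.48 ± 0.14 (edgeR adjusted p = 1.47e-07) and was higher in 1 of 5 libraries by totals. Its levels overlapped, at 0.0454 to 0.0730 against 0.0615 to 0.0868, and on library totals it was at −0.35 and not called. Pmaip1, at 0.98 ± 0.12, lay just under the fold limit and passed it by DESeq2 (1.0), without filtering (1.01), without day 0 (1.05), day 3 (1.02) or day 6 (1.01), at 1000 UMIs or more (1.12), without mitochondrial outliers (1.01) and on library totals (2.11). On library totals 6229 genes were higher and 766 lower, in place of 2151 and 2009, and 7 members were higher and 0 lower. Mcl1 turned there from −0.86 to 0.28 and Bcl2a1a from −0.16 to 0.96, while Bcl2a1b, 0.12 with TMM, was −0.01 without day 0 and −0.06 without day 6.

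Between NK-like and T-like cells, edgeR called 0 of 8 members tested (10.2% of 5975 genes were called), 3 of 8 had an unadjusted p under 0.05, and DESeq2 also called 0, with 3 at an unadjusted p under 0.05. Bcl2 was at −0.78 ± 0.11 (edgeR adjusted p = 5.18e-06), higher in NK-like cells in 0 of 5 libraries. Mcl1 was at −0.46 ± 0.11 (edgeR adjusted p = 0.00309), in 0 of 5, and Bcl2l11 at 0.57 ± 0.18 (edgeR adjusted p = 0.0236), in 4 of 5. These 3 differences passed the p limit by edgeR and fell short of the fold limit. By DESeq2 only Bcl2 passed it, with adjusted p of 0.0568 for Mcl1 and 0.181 for Bcl2l11, and on library totals edgeR gave Mcl1 0.171. With free RNA taken off, as described below, NK-like cells held more Mcl1 in 4 of 5 libraries, so its direction turns. Bcl2 differed most at day 12, with 1.62 in NK-like and 3.61 in T-like cells. Bcl2a1a and Pmaip1 had too few counts to be tested, and on library totals Bcl2a1d turned from −0.21 to 0.04.

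**Figure D2:**
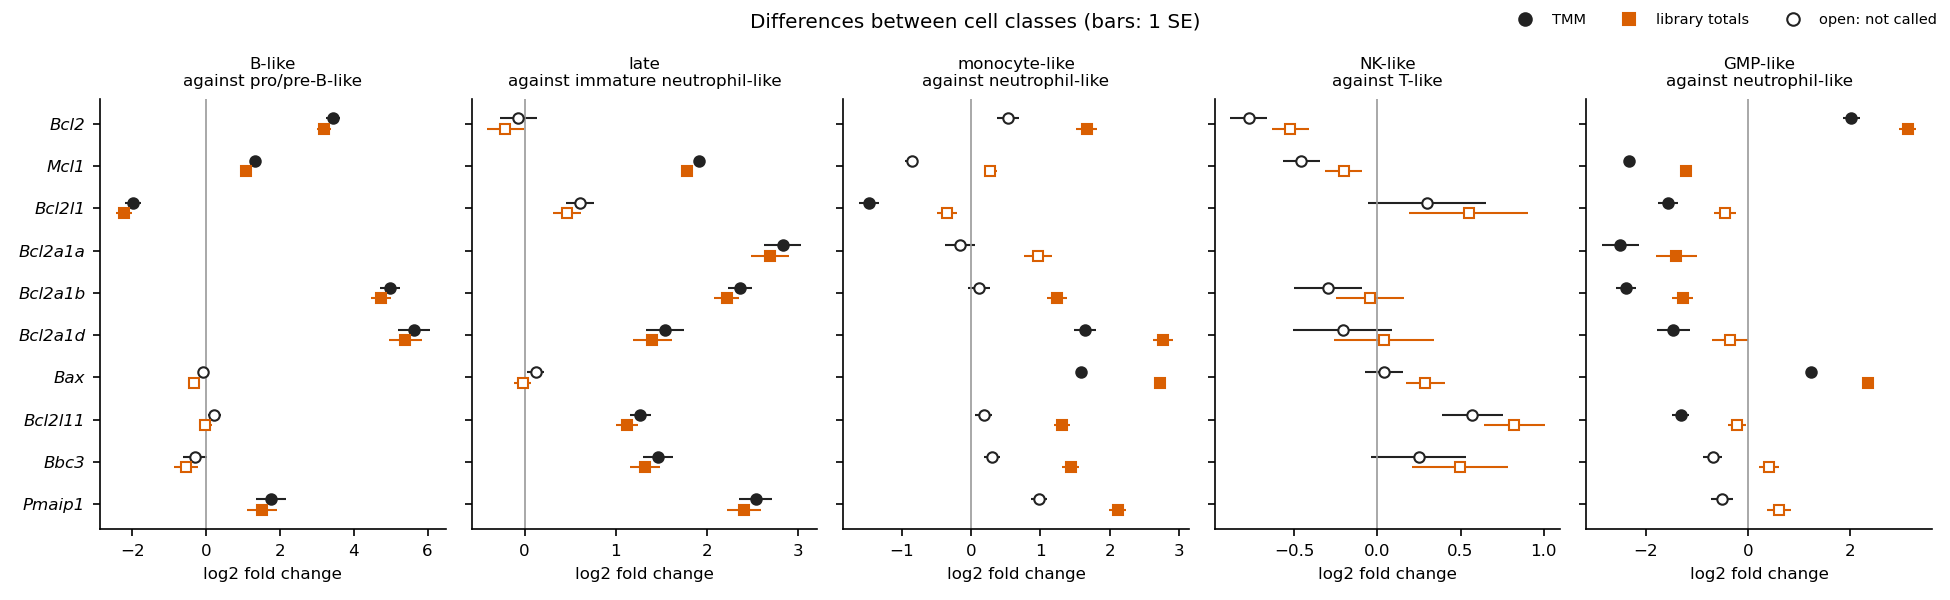
Log2 fold changes of the members (horizontal axes) in 5 class contrasts (panels), as circles with TMM and as squares on library totals, with bars of 1 standard error over 5 libraries. Filled symbols were called and open ones were not, and in the GMP-like and monocyte-like panels the squares lie to the right of the circles, so that Mcl1 and Bcl2a1a (monocyte-like) and Bbc3 and Pmaip1 (GMP-like) change sign.

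RNA that is free in the suspension reaches every droplet, and Mcl1 was abundant in it. In barcodes with at most 100 UMIs, Mcl1 stood at 3.54, 3.31, 4.18, 4.17 and 6.03 UMIs per 10000, highest at day 12, and Bcl2 at 0.235 to 0.355. The neutrophil genes S100a8 and S100a9 give an upper estimate of the free share in lymphocytes, to which doublets also add. That share was 29.2% to 51.0% in B-like, 23.0% to 43.8% in T-like, 10.5% to 23.1% in NK-like and 12.5% to 13.7% in pro/pre-B-like cells. Free RNA of that amount would give 62.1% to 101% of the Mcl1 measured in T-like cells, so expression of Mcl1 there was not told from background in every library. In NK-like cells it would give 29.6% to 68.7% of Mcl1. With free RNA taken off and the rest rescaled, Mcl1 stood at 1.07, 0.808, 0.572, 0.985 and 1.44 in NK-like and 0.619, 0.823, −0.0281, 0.0408 and 0.714 in T-like cells. NK-like cells were then higher in 4 of 5 libraries, against 0 of 5 before, so the direction of Mcl1 between these classes turns with this step. In T-like cells it would give only 1.5% to 4.17% of Bcl2.

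In B-like cells the expected free Mcl1 was 49.9%, 33.8%, 78.0%, 55.4% and 80.2% of the measured level. With it taken off and the rest rescaled, Mcl1 stood at 1.87, 2.67, 1.23, 2.64 and 1.30 in B-like and at 1.21, 0.682, 1.03, 0.940 and 0.791 in pro/pre-B-like cells. The B-like values were higher in each library, with the smallest gap at day 6. Bcl2 stood at 0.963 to 1.64 in B-like and 0.00230 to 0.171 in pro/pre-B-like cells after the same step. For pro/pre-B-like cells the expected free RNA was 17.7% to 94.8% of the measured Bcl2, and for Bcl2a1b it exceeded the measured level at days 0, 3, 6 and 9. Since the estimate is an upper one, Bcl2a1b in that class was not told from background in those 4 libraries. Pmaip1 in B-like cells was 28.2% free RNA by this estimate at day 0 and 93.2%, 90.7%, 86.1% and 53.4% later, so that its levels were near background at days 3, 6 and 9. At day 12 it stood at 0.0960, from 2 UMIs, beside 0.0513 expected.

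**Figure D3:**
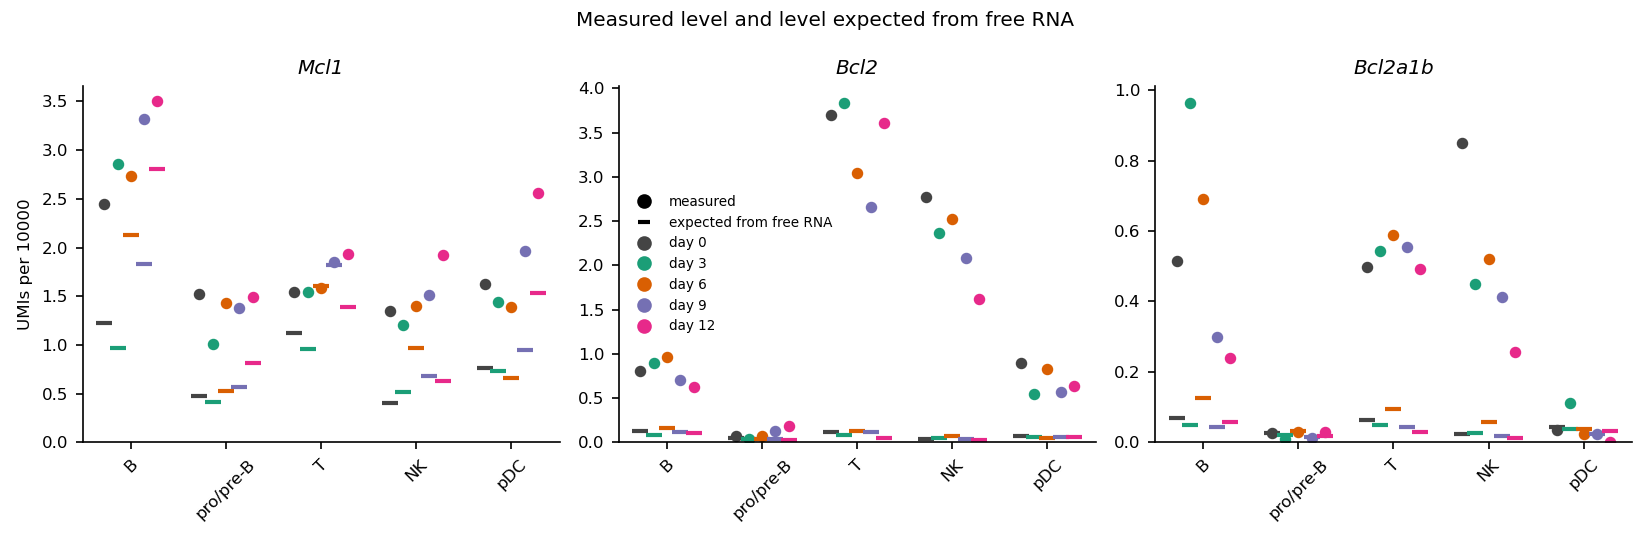
Measured levels (dots) of Mcl1, Bcl2 and Bcl2a1b and the levels expected from free RNA (dashes), in UMIs per 10000, for 5 lymphoid and dendritic classes on each day. Dots and dashes of Mcl1 meet in T-like cells at days 6 and 9 (101% and 98.8% expected), and dots of Bcl2 lie far above the dashes there.

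The days were compared as ratios to day 0, which all share the day 0 library. A gene is past the fold at more than 1.5 times, with 0.1 added to both levels and at least 20 UMIs in both libraries together. In immature neutrophil-like cells the level of Mcl1 was 1.41 at day 0 and 1.21, 1.52 and 1.5 at days 3, 6 and 9, with intervals reaching at most 1.60, and 2.23 (2.15 to 2.32) at day 12. Day 12 was above every other interval, with a log2 ratio of 0.63, and 1.01 after thinning to 1000 UMIs. With a pseudocount of 1 it was 0.43, no longer past the fold, and 5 genes in place of 73 were past it. With that pseudocount no member stayed past the fold in any of the 6 classes. Free RNA moved alongside, with Mcl1 at 3.54, 3.31, 4.18, 4.17 and 6.03, also lowest at day 3 and highest at day 12. No free share was estimated for neutrophil-like cells, and the part of free RNA in their Mcl1 was not tested. With the pseudocount of 0.1, Mcl1 was the only member past the fold in these cells, with 0 of 10, 0 of 9, 0 of 10 and 1 of 10 members at days 3, 6, 9 and 12, against 1.72%, 2.75%, 3.35% and 0.763% of genes. In late neutrophil-like cells Mcl1 was also highest at day 12, at 6.78 (6.57 to 6.99) beside 5.32 (5.07 to 5.57) at day 0, short of the fold.

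Late neutrophil-like cells had 0 of 10 members past the fold at days 3, 6 and 9 and 2 of 10 at day 12, against 2.41%, 2.34%, 3.08% and 2.66% of genes. These were Bcl2a1b, at 0.300 (0.243 to 0.365) on day 0 and 0.150 (0.120 to 0.185) on day 12, and Pmaip1, at 0.223 (0.175 to 0.281) and 0.0512 (0.0346 to 0.0731). The day 0 class lay mostly in 1 cluster (841 of 1444 barcodes) and the day 12 class in another (1257 of 2259), whose part in these ratios was not tested. Monocyte-like cells had 1, 1, 0 and 1 of 10 members past the fold, against 2.69%, 2.20%, 3.03% and 1.79% of genes. Bcl2a1b was lower at days 3 and 12, with 0.341 (0.295 to 0.394) at day 0, 0.151 (0.121 to 0.188) and 0.175 (0.138 to 0.219), and Pmaip1 at day 6, with 0.327 (0.281 to 0.378) and 0.170 (0.141 to 0.204). Bcl2a1b at day 6 was 0.333 (0.291 to 0.379), as high as at day 0. After thinning its log2 ratios at days 3 and 12 were −0.28 and −0.14, short of the fold. A cluster with Cd14, Cd83 and Nr4a1 among its leading genes held 241 of 964 monocyte-like barcodes at day 0, 100 of 686 at day 3, 166 of 845 at day 6 and 104 of 697 at day 12. Its part in these ratios was not tested.

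B-like cells had 3 of 8, 1 of 9, 3 of 9 and 4 of 7 members past the fold at days 3, 6, 9 and 12, against 11.3%, 5.27%, 7.86% and 23.8% of genes. Pmaip1 was lower on all 4 days, from 0.210 (0.144 to 0.294) to between 0.0466 and 0.0960. Bcl2a1b was above day 0 on day 3, at 0.964 (0.739 to 1.24) beside 0.515 (0.409 to 0.640), and below it on day 9, at 0.300 (0.213 to 0.410). The share of barcodes with a UMI was 7.16% at day 0 and 7.45% at day 3, and after thinning the log2 ratio of day 3 was −0.27 in place of 0.79, and that of day 9 −0.39, short of the fold. The class also shifted between clusters, 1 of which held 82 of 838 barcodes at day 0, 77 of 255 at day 3 and 201 of 590 at day 9, and its part in these ratios was not tested. On day 12 the class had 110 barcodes, and Bax, Bcl2a1b, Bcl2a1d and Pmaip1 were below day 0 on 18, 5, 2 and 2 UMIs. Bcl2l11 was above day 0 on day 3, though short of the fold after thinning (0.33), and Bcl2a1d below it on day 9. By measured levels Bcl2 and Mcl1 stayed within the fold in B-like cells on all 4 days. Free RNA was not taken off in these ratios. With it taken off, Bcl2 stood at 1.04, 1.15, 1.64, 1.06 and 0.963, highest at day 6. Mcl1 then stood at 1.87, 2.67, 1.23, 2.64 and 1.30, with days 6 and 12 below day 0 and not above it as measured.

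Pro/pre-B-like cells had 1 of 5, 2 of 6, 1 of 6 and 0 of 5 members past the fold, against 9.87%, 7.36%, 8.15% and 18.9% of genes. Bbc3 was lower on days 3, 6 and 9, from 0.199 (0.126 to 0.298) to 0.0385 (0.0105 to 0.0986), 0.0806 (0.0441 to 0.135) and 0.0865 (0.0484 to 0.143). A cluster marked by Vpreb1, Igll1 and Dntt held 98 of 285 barcodes of this class at day 0 but 23 of 190, 47 of 385 and 54 of 384 at those days, and its part in the Bbc3 ratios was not tested. Bcl2l1 was higher on day 6, at 0.582 (0.474 to 0.707) beside 0.328 (0.232 to 0.450). Adding the Cdkn2a-Tmem119 group to the day 3 cells moved the log2 ratio of Bcl2 from −0.29 to 0.65, of Mcl1 from −0.54 to −0.94, of Bcl2l1 from 0.32 to −0.05 and of Bax from −0.19 to 0.10. T-like cells had 0 of 8, 1 of 9, 1 of 9 and 1 of 8 members past the fold, against 7.96%, 5.46%, 7.13% and 8.53% of genes. The 3 were Bcl2a1d (higher, day 6), Bax (lower, day 9) and Bcl2l1 (higher, day 12, on 12 UMIs). After thinning the first pair fell short of the fold, at 0.23 and −0.51, and Bcl2l1 turned to −0.02. T-like clusters shifted as well, 1 from 12 of 751 barcodes at day 0 to 40 of 368 at day 6 and another from 368 of 751 to 77 of 243 at day 12, with their part not tested. Bcl2, the leading member of T-like cells, was within the fold on all days.

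Genes known to respond within minutes to stress and handling moved with the days as well. The 15 genes of an immediate-early and dissociation list, all found in the matrices, summed to 114, 61.7, 69.7, 56.8 and 81.2 UMIs per 10000 in late neutrophil-like cells. In monocyte-like cells they summed to 103, 46.4, 45.1, 49.4 and 70.9, and in B-like cells to 52.3, 23.5, 31.8, 32.0 and 40.4. Immature neutrophil-like cells gave 35.6, 21.6, 23.3, 21.3 and 30.7, and pro/pre-B-like cells 45.3, 15.3, 23.8, 20.6 and 25.3. Day 0 was highest and day 12 next in each of these classes. Fos was the most abundant gene of the list in monocyte-like cells on each day (29.4 at day 0). Between classes, 12 of 15 were called higher in late than in immature neutrophil-like cells, led by Junb (2.70), Dusp1 (2.45), Atf3 (2.34), Zfp36 (2.06) and Fos (1.83). B-like cells had 5 of 14 higher than pro/pre-B-like cells, Junb (1.92), Klf6 (1.26), Ier2 (1.23), Hspa1a (1.13) and Egr1 (1.12). GMP-like cells had 11 of 15 lower and 2 higher, led by Btg2 (−3.08), Dusp1 (−2.77) and Zfp36 (−2.59), with Junb and Klf6 at −2.30. Monocyte-like cells had 3 of 15 higher, Hspa1a (2.74), Atf3 (2.30) and Hspa1b (1.82), and 3 lower, with Jund (−1.56) and Btg2 (−1.47) leading. Of 13 tested, edgeR called 0 between NK-like and T-like cells. Beside these stand 14.4% of all genes higher in late neutrophil-like, 13.7% in B-like, 24.6% higher and 25.1% lower in GMP-like, and 19.1% higher and 17.8% lower in monocyte-like cells. On library totals the counts were 9 higher in late neutrophil-like cells (11.9% of all genes), 2 in B-like (10.1%), 2 higher and 6 lower in GMP-like (51.9% and 9.53%) and, by edgeR, 4 higher and 0 lower in monocyte-like cells (55.3% and 6.80%). The part of these genes in the values of Mcl1, Pmaip1 and Bbc3 was not tested.

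**Figure D4:**
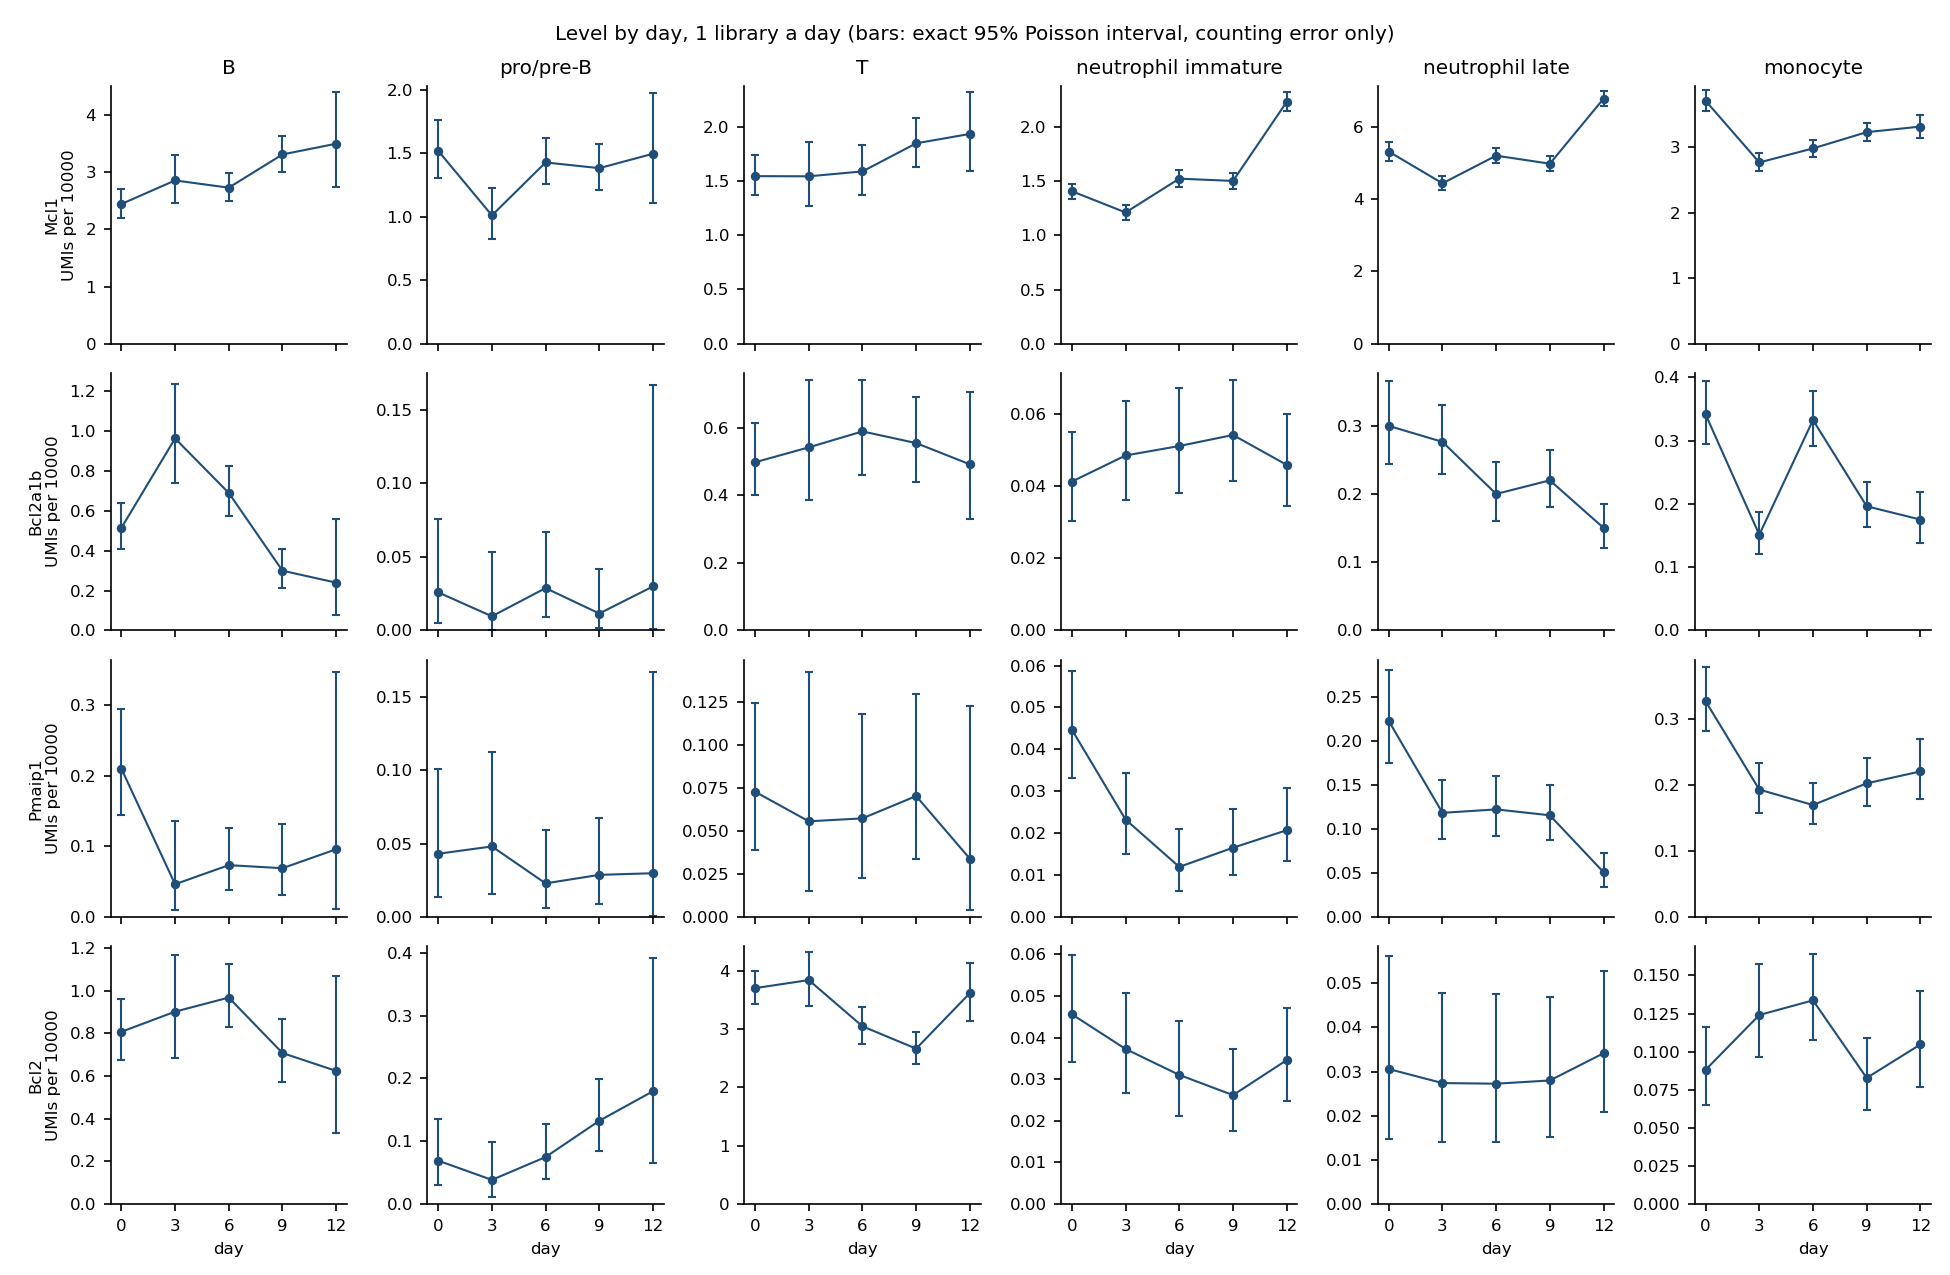
Levels of Mcl1, Bcl2a1b, Pmaip1 and Bcl2 (UMIs per 10000) by day in 6 classes, with exact 95% Poisson intervals as bars and 1 library per point. Mcl1 in immature neutrophil-like cells is 1.21 to 1.52 up to day 9 and 2.23 at day 12, and Pmaip1 in late neutrophil-like cells goes from 0.223 to 0.0512.

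Other genes of the death pathway were taken from lists. In the B-like contrast the 9 tested of 16 other Bcl2 family genes held 1 higher, Bid (1.06, and 0.82 on library totals), a BH3-only protein cut by caspases, and 1 lower, the effector Bok (−5.02), with a median of −0.42 against 1.32 for the members and 0.04 for all genes. Of 13 caspase pathway genes, Casp9 (1.29) was higher and Cycs (−1.32), which encodes cytochrome c, and Vdac1 (−1.09) lower. The 6 caspase inhibitors held Birc3 (1.27) higher and Birc5 (−2.0), which also acts in mitosis, lower. Of 4 genes of MCL1 turnover, Btrc (−1.48) was lower. Of all genes, 13.7% were higher and 11.8% lower, so these counts are near the background shares. In late against immature neutrophil-like cells, Bnip3 (2.1), Bmf (1.75) and Bid (1.43) were higher and Bcl2l2 (−2.43) and Bcl2l12 (−1.32) lower among 9 other family genes. There, Cycs (−1.31) was among the lower of 14 caspase pathway genes, with Birc3 (1.22) higher and Birc5 (−2.24) lower among 6 inhibitors, and 0 of 4 MCL1 turnover genes were called. Of all genes 14.4% were higher and 16.6% lower there. The median was 1.5 for the members and −0.24 for the other family genes, against −0.03 for all genes.

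Of all genes, 24.6% were higher and 25.1% lower in GMP-like than in neutrophil-like cells. GMP-like cells had 4 of 6 caspase inhibitors called lower, Birc3 (−1.70), Cflar (−1.48), Xiap (−1.20) and Birc2 (−1.01). On library totals these were −0.59, −0.37, −0.09 and 0.10, all short of the fold limit, so their calls rest on the scaling. Of 14 caspase pathway genes, those called included Apaf1 (−1.02, and 0.08 on library totals), lower, and Cycs (1.31) and Htra2 (1.09), higher. Of 9 other family genes, Bcl2l12 (1.61) was higher and Bmf (−4.52) and Bnip3l (−1.66, and −0.55 on library totals) lower, and 0 of 4 MCL1 turnover genes were called with TMM. On library totals 51.9% of all genes were higher and 9.53% lower, beside 5 and 1 of the other family genes, with 10 of 14 caspase pathway, 1 of 6 inhibitor and 2 of 4 turnover genes higher. Monocyte-like cells had Bmf (1.13) and Bcl2a1c (1.07) higher among 10 other family genes, Casp6 (2.16) higher among 14 caspase pathway genes, Cflar (−1.21, and −0.08 on library totals) lower among 6 inhibitors and 0 of 4 MCL1 turnover genes called by edgeR with TMM. Of all genes, 19.1% were higher and 17.8% lower with TMM. On library totals, where 55.3% of all genes were higher, the counts higher were 7 of 10 other family, 10 of 14 caspase pathway, 3 of 6 inhibitor and 3 of 4 turnover genes. In NK-like against T-like cells, Bnip3 (2.06) was higher among 6 other family genes and Birc5 (1.40) among 6 inhibitors, with 0 of 7 caspase pathway and 0 of 3 MCL1 turnover genes called by edgeR. There, 10.2% of all genes were called in either direction. The members' medians were −1.39 in the GMP-like, 0.24 in the monocyte-like and −0.09 in the NK-like contrast, and −0.28, 1.37 and 0.16 on library totals, so the NK-like median turned.

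The genes whose levels were most like those of each member were found over 56 sums of class and library, which share libraries and depth, so Pearson's r is a description only. Bcl2 was most like Cd27 (0.95), Runx3 (0.88) and Plcxd2 (0.87), and Cd27 was also among the naming markers of ST-HSC & MLP-like cells. Mcl1 was most like Zfp36 (0.88), Rassf3 (0.87) and Il1b (0.85), the last a naming marker of late neutrophil-like cells. Bax was most like Tmem261, Faim and Pin4 (0.91 each), and Bcl2l11 like H2-K1 (0.84), Crem (0.84) and Epsti1 (0.83). Weaker values were found for Bcl2l1 with Gm37065 (0.67), Cdc25b (0.66) and Tfdp2 (0.65). Bcl2a1b and Bcl2a1d, at 0.90 with each other, were followed by Neurl3 (0.78) and Ddx58 (0.76) for Bcl2a1b and by Stk10 (0.75) and Pld3 (0.73) for Bcl2a1d. Bbc3 was most like Mef2a (0.73), Prex1 (0.71) and Tnfaip3 (0.71), and Pmaip1 like Rilpl2 (0.73), Ctage5 (0.71) and Alcam (0.71). Bcl2a1a had too few UMIs. Among members of different genes, Bcl2 and Bcl2l11 went together at 0.73, Bcl2 and Mcl1 stood at −0.30, and Bcl2l1 and Pmaip1 at −0.56.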

How the data were processed

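Marrow of 5 mice, 1 per day, was sequenced by droplets. The counts are raw UMI counts per gene and barcode that the authors deposited, empty droplets included, made with Cell Ranger on mm10 per the labels. The members and gene lists were chosen with earlier results of these data known.

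Barcodes with at least 500 UMIs were clustered in Python 3.11.15 with scanpy 1.11.5 and leidenalg 0.10.2 (983 variable genes, 20 principal components, 20 neighbors, resolution 0.6). B-lineage, T and NK, progenitor and dendritic clusters were clustered again, giving 44 clusters. A class needed at least 3 of its markers, and the naming rules were set after the clusters had been seen. Doublets were kept. Scrublet's own threshold marked 2.37% of barcodes at day 0 but at most 0.0341% in the other 4 libraries, so leaving out the highest scores at 0.8% per 1000 barcodes was added after seeing this.

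Class contrasts used edgeR 4.0.16 in R 4.3.3 (filterByExpr, TMM) and DESeq2 1.42.0 as an alternative. Library totals were added after the TMM factors had been seen. The steps were tested on simulated data. The 6 classes compared with day 0 were chosen after values had been seen. Of these, 5 have at least 100 barcodes in every library, and pro/pre-B-like cells were added for the leukemia. Named genes were all members, the called genes of each list with the largest fold changes, at most 5 a list and contrast, and the 3 most like genes of each member; some called caspase pathway genes are not reported here. Copies and promoters were aligned with biopython 1.88. Alternatives changed the scaling, filter, block, libraries, depth, mitochondrial limit, doublets, resolution and pseudocount.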

Additional observations from a re-analysis of the deposited data

Results flagged for a closer look

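In 1 of 50 groups of 5 libraries, a library lay far from the others. This was Bax in B-like against pro/pre-B-like cells at day 12, where the log2 difference between the classes was −1.13, while the other 4 libraries lay between −0.34 and −0.02. The gap to the nearest library was 0.712 of the whole range, against a limit of 0.71. Chance alone marks about 1 in 20 groups. The B-like value of that day rests on 18 UMIs in 110 barcodes and the pro/pre-B-like value on 67 UMIs in 54 barcodes.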

How the results depend on the processing

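Of 70 alternative counts of genes called, 69 were within 1.5 times of the reported count, the exception being monocyte-like cells on library totals (6995). Leaving out 1 library gave 2138 to 2313 genes for the B-like, 2933 to 3139 for the late neutrophil-like, 4056 to 4152 for the monocyte-like, 547 to 613 for the NK-like and 5379 to 5547 for the GMP-like contrast, and no library block gave 1797, 2752, 3685, 409 and 4977. Of 653 alternative fold changes of members, 623 kept their direction and their side of the limits, 4 fell short, 13 newly passed and 13 changed direction; the cause was not tested. The latter were, on library totals, Bcl2l11 (−0.019, B-like), Bax (−0.022, late), Mcl1 (0.28) and Bcl2a1a (0.96) in monocyte-like, Bcl2a1d (0.039, NK-like), and Bbc3 (0.42) and Pmaip1 (0.60) in GMP-like cells. With doublets left out by rate they were Bax in B-like (0.018) and NK-like cells (−0.017). With 1 library left out, Bcl2 in late neutrophil-like cells ran from −0.15 to 0.027 (without day 0), Bcl2a1b in monocyte-like cells from −0.063 (without day 6) to 0.30, with −0.012 without day 0, and Bcl2l1 in NK-like cells from −0.090 (without day 0) to 0.61. Of the listed genes named in GMP-like cells, Birc2 (0.10) and Apaf1 (0.084) changed direction on library totals. Library totals and doublets by rate were chosen after seeing the data. Of 1657 alternative day ratios of members, 1526 stayed within their interval, 129 moved and 2 that had been past the fold changed sign. Both did so after thinning to 1000 UMIs, Bcl2a1b in B-like cells at day 3 (−0.27) and Bcl2l1 in T-like cells at day 12 (−0.020). Sign changes of ratios within the fold were not counted apart. Of 190 alternative counts of genes past 1.5 times, 141 were within 1.5 times of the reported count. The other 49 follow for days 3, 6, 9 and 12, and their cause was not tested. A pseudocount of 1 gave 45, 43, 64 and 46 in B-like, 39, 34, 42 and 52 in pro/pre-B-like, 13, 18, 29 and 8 in T-like, 26, 32, 40 and 5 in immature neutrophil-like, 44, 37, 53 and 26 in late neutrophil-like and 40, 32, 46 and 16 in monocyte-like cells. Thinning gave 443, 559, 644 and 326 in immature neutrophil-like, 367, 408, 458 and 394 in late neutrophil-like and 718, 718, 705 and 614 in monocyte-like cells, 651 in B-like and 716 in T-like cells at day 6, and at day 12 782 in the pro/pre-B-like class. The mean over barcodes gave 1456, 1169, 1275 and 1961 in pro/pre-B-like cells, 915, 724 and 978 in T-like cells at days 3, 6 and 12, and 118 in immature neutrophil-like cells at day 12. Leaving out Scrublet doublets gave 716 in B-like cells at day 6, and leaving out mitochondrial outliers 2410 in T-like cells at day 12. The mitochondrial limit at day 12 was 2.50% of UMIs, and with it B-like, pro/pre-B-like, ST-HSC & MLP-like and plasmacytoid dendritic-like cells gave no day 12 value, so the B-like contrast rested on 4 libraries there. Depth limits the sparse members: Bcl2a1a had 621 UMIs in all, and in pro/pre-B-like cells only 5 or 6 members had 20 UMIs over both days compared.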
